A study of Mus musculus with 8 samples.

Results

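The Period genes Per1, Per2 and Per3 and the cryptochrome genes Cry1 and Cry2 form the repressor arm of the circadian clock, and their loops were collected from in-situ ChIA-PET of HA-tagged REV-ERBα in mouse liver. ChIA-PET pulls down a protein with the chromatin ligated to it, and a paired-end tag (PET) is one sequenced pair that joins the 2 anchors of a loop. A loop was counted for a gene when either anchor fell in its mm10 gene body or within 5 kb of it, and all 5 genes, of 21887 protein-coding genes, were found. They held 5 of 40597 loops at zeitgeber time (ZT) 22, 67 of 57865 at ZT10, 12 of 31033 and 8 of 58102 in WT replicates 1 and 2, and 18 of 47939 and 8 of 41981 in ΔhIDR replicates 1 and 2.

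All 6 libraries came from liver and were pulled down with anti-HA beads. The knock-in mice (genotype REV-ERBa3HA/3HA, no virus) have the tag in the endogenous REV-ERBα and gave 1 library at ZT22 and 1 at ZT10. The other 4, all at ZT10, came from REV-ERBaf/fREV-ERBbf/f mice, whose floxed Nr1d1 and Nr1d2 genes Cre can delete, and each received AAV8-TBG-Cre. With it came AAV8-TBG-3HA-REV-ERBa-WT (2 libraries, called WT here) or AAV8-TBG-3HA-REV-ERBa-delhIDR (2 libraries, called ΔhIDR), a form that by its label lacks the hIDR. TBG is a hepatocyte promoter, so other liver cells keep the floxed genes, and the construct is made from the virus and not from the Nr1d1 gene. The labels give neither the age nor the number of animals, and nothing in them says that replicates came from separate animals, so spreads and p-values cover these libraries only.

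PER and CRY proteins accumulate after BMAL1 and CLOCK, with the related NPAS2, switch on their genes through E-box elements, and then enter the nucleus and repress that same activator. REV-ERBα is a nuclear receptor that binds ROR elements, whose core is the half-site AGGTCA, and recruits corepressors to the genes it occupies, and it has a high level in liver late in the light phase. Cry1 is the member best known as a direct target of that receptor, through ROR elements inside the gene, and D-boxes bound by DBP, TEF, HLF and NFIL3 add a further layer at the Period genes.

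The upstream sequence of 4 of the 5 genes was taken from RefSeq (build GRCm38.p6, whose coordinates are those of mm10), and Per2 was not matched. The 250 bases before a start site are shown because anchors of ZT10 loops lay over those of Per1, Cry1 and Cry2 and none lay over that of Per3. Capitals mark matches on either strand to the half-site AGGTCA, the E-box CACGTG or the D-box TTANGTAA. The longer forms TAGGTCA and RevDR2, the direct repeat of the half-site, which both contain AGGTCA, were searched too and had no match. Of the 2 start sites listed for Per1 the upstream one is shown.
Per1 (chr11:69098699-69098948, plus strand): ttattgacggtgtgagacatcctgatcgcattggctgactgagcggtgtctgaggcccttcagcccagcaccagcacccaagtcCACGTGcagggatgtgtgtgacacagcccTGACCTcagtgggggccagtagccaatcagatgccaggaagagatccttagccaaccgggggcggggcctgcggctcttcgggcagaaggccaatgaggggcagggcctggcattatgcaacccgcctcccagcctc
Cry1 (chr10:85185055-85185304, minus strand): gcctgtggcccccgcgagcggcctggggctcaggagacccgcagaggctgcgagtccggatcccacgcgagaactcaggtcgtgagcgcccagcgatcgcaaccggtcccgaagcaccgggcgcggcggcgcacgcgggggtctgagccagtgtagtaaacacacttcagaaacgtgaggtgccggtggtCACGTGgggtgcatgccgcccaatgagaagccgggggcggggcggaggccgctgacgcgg
Cry2 (chr2:92434070-92434319, minus strand): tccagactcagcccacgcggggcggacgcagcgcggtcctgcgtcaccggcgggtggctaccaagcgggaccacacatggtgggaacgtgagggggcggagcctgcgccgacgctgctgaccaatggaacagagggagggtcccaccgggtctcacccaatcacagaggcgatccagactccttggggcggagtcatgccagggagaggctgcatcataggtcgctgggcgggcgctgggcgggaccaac
Per3 (chr4:151044666-151044915, minus strand): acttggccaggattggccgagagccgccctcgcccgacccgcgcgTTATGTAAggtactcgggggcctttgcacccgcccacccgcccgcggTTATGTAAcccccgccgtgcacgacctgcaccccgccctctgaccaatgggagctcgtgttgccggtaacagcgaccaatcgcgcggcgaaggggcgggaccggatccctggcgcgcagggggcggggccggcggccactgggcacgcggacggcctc

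Per1 held 1 CACGTG, with its first base at -166 from the start site, and 1 AGGTCA on the opposite strand at -137. Cry1 held 1 CACGTG at -60. Per3 held 2 matches to TTANGTAA, at -205 and -158, and Cry2 held no match to any of the 5 motifs, nor did the second Per1 start. Among 32851 such windows in the RefSeq table, 14.0% held AGGTCA, 6.02% CACGTG, 2.06% TTANGTAA, 2.23% TAGGTCA and 0.0213% RevDR2. At ZT10, loops with an anchor over the printed window held 5 PETs at Per1 (1 loop), 38 at Cry1 (3 loops) and 10 at Cry2 (1 loop). In the other 5 libraries no loop at these genes had an anchor over it. A match in these letters is a description and was not tested as a binding site.

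The files list only loops of at least 3 PETs, so an unlisted loop has at most 2, and totals of listed PETs do not measure how deeply a library was sequenced. Listed PETs ranged from 104161 to 320427 per library, and intervals on PETs are exact Poisson intervals at 95% that cover counting error only and take PETs as independent molecules. The ZT10 knock-in library stood apart, with a median loop span of 40.1 kb against 524.1 to 1071 kb in the other 5, and a mean of 5.54 PETs per loop against 3.27 to 3.83. Its loops also held the most PETs at hepatocyte marker genes, with 58.5 per 10000 listed against 0.931 to 3.84 in the other libraries. Both ZT10 and ZT22 listed 7 of the 8 markers, among them Fgb and Cyp7a1. Fgb alone held 930 of the 1875 marker PETs at ZT10. Kupffer cell markers were at 0.0936 at ZT10, with 5 of 6 unlisted, and at 1.31 to 3.82 elsewhere. Fewer cells that loop and fewer loops per cell cannot be told apart in such bulk samples. The part of these whole-library differences in the results below was not tested.

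Per2 had the most PETs of the family at ZT10, in 25 loops against 20 at Cry1 and 13 at Cry2. Its gene body (chr1:91415977-91459351) lies on the minus strand, and its listed PETs numbered 8 at ZT22, 236 at ZT10 (interval 206.8 to 268.1), 9 and 6 in WT, and 19 and 11 in ΔhIDR. The ZT10 library was thus high and the other 5 low. Per 10000 listed PETs this was 7.37 (6.46 to 8.37) at ZT10, against 0.294 to 1.06 elsewhere. Only 1.02% of genes had more PETs in the ZT10 library, and 1.82% had more per length of window, where Per2 had 44.2 PETs per 10 kb.

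Cry1 followed, a flavoprotein gene whose product is the stronger transcriptional repressor of the 2 cryptochromes. On the minus strand of chromosome 10 (chr10:85131700-85185054), it had 6 PETs at ZT22, 94 at ZT10 (76.0 to 115.0), 20 and 12 in WT, and 21 and 0 in ΔhIDR. Cry2 (chr2:92403646-92434085), its paralog, was unlisted at ZT22 and had 70 PETs at ZT10 (54.6 to 88.4), 7 and 6 in WT, and 0 and 3 in ΔhIDR. Per1 (chr11:69095108-69109965), the Period gene that light and hormones also induce directly, had 3 PETs at ZT22, 29 at ZT10 (19.4 to 41.6), 0 and 0 in WT, and 12 and 12 in ΔhIDR. Per3 (chr4:150997018-151044707), the Period gene least needed for rhythms, was unlisted at ZT22 and had 3 PETs at ZT10, 6 and 3 in WT, and 24 and 7 in ΔhIDR.

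Per length of window the order at ZT10 was Per2 (44.2 PETs per 10 kb), Cry2 (17.3), Cry1 (14.8), Per1 (11.7) and Per3 (0.520). In PETs per gene the intervals of Cry1 and Cry2 overlapped, and those of Per1, Per2 and Per3 overlapped none of the others. ZT10 was the highest library for Per1, Per2, Cry1 and Cry2 per 10000 listed PETs, and for Per3 it was the lowest of the 5 that listed the gene.

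**Figure D1:**
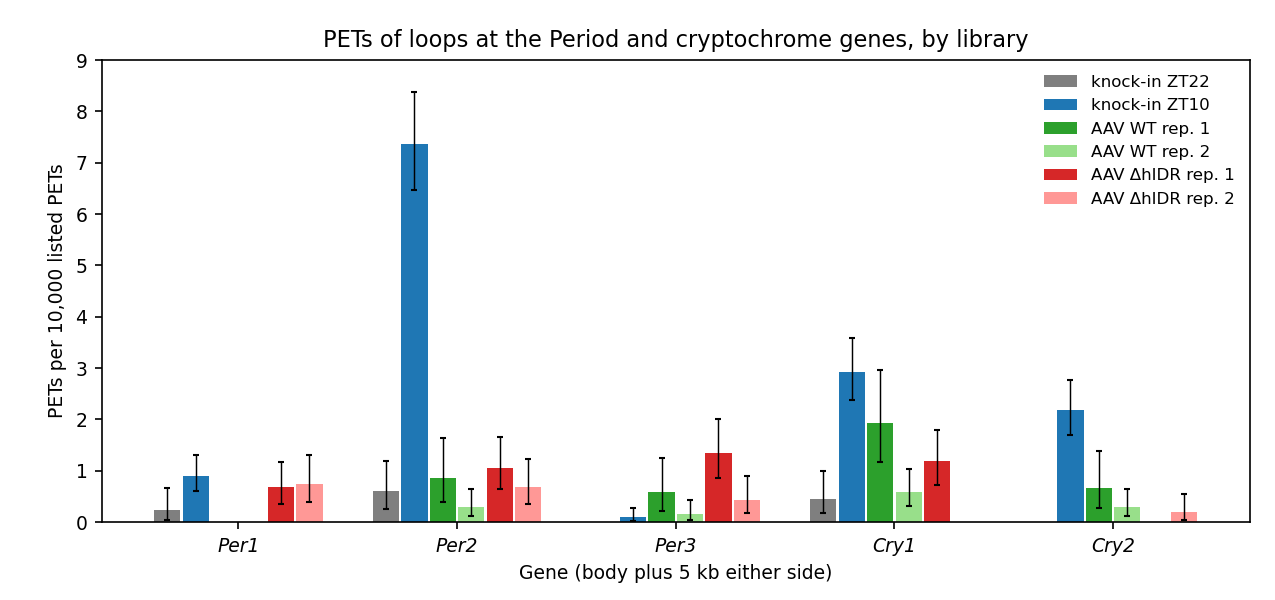
PETs per 10,000 listed PETs (vertical axis) of loops at each gene, with 1 bar per library and exact Poisson intervals at 95% where a loop was listed. Per2 reaches 7.37 at ZT10, Cry1 2.93 and Cry2 2.18, whereas Per3 is highest in ΔhIDR replicate 1 at 1.35.

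Most of the ZT10 loops stayed inside the window (gene body plus 5 kb either side) of the gene they touched. Of the 67, 38 had both anchors in the window of the gene, and those held 332 of 432 PETs. The share of PETs within the window was 91.9% at Per2, 74.5% at Cry1, 45.7% at Cry2, 44.8% at Per1 and 0% at Per3. Windows ran from 24.9 kb (Per1) to 63.4 kb (Cry1), and the median span over all ZT10 loops was 40.1 kb. The within-window share over other genes was not counted, so it is not known whether these genes stand out. Loops under 100 kb made up 85.1% of the 67, against 72.8% of all loops in that library. In the other libraries loops under 100 kb at these genes numbered 2 of 5 at ZT22, 4 of 12 and 1 of 8 in WT, and 4 of 18 and 2 of 8 in ΔhIDR. Spans at the 5 genes had a median of 29.1 kb at ZT10 and 1497 kb at ZT22. In WT replicates 1 and 2 the medians were 516.9 and 23608 kb, and in ΔhIDR they were 733.7 and 392.9 kb.

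**Figure D2:**
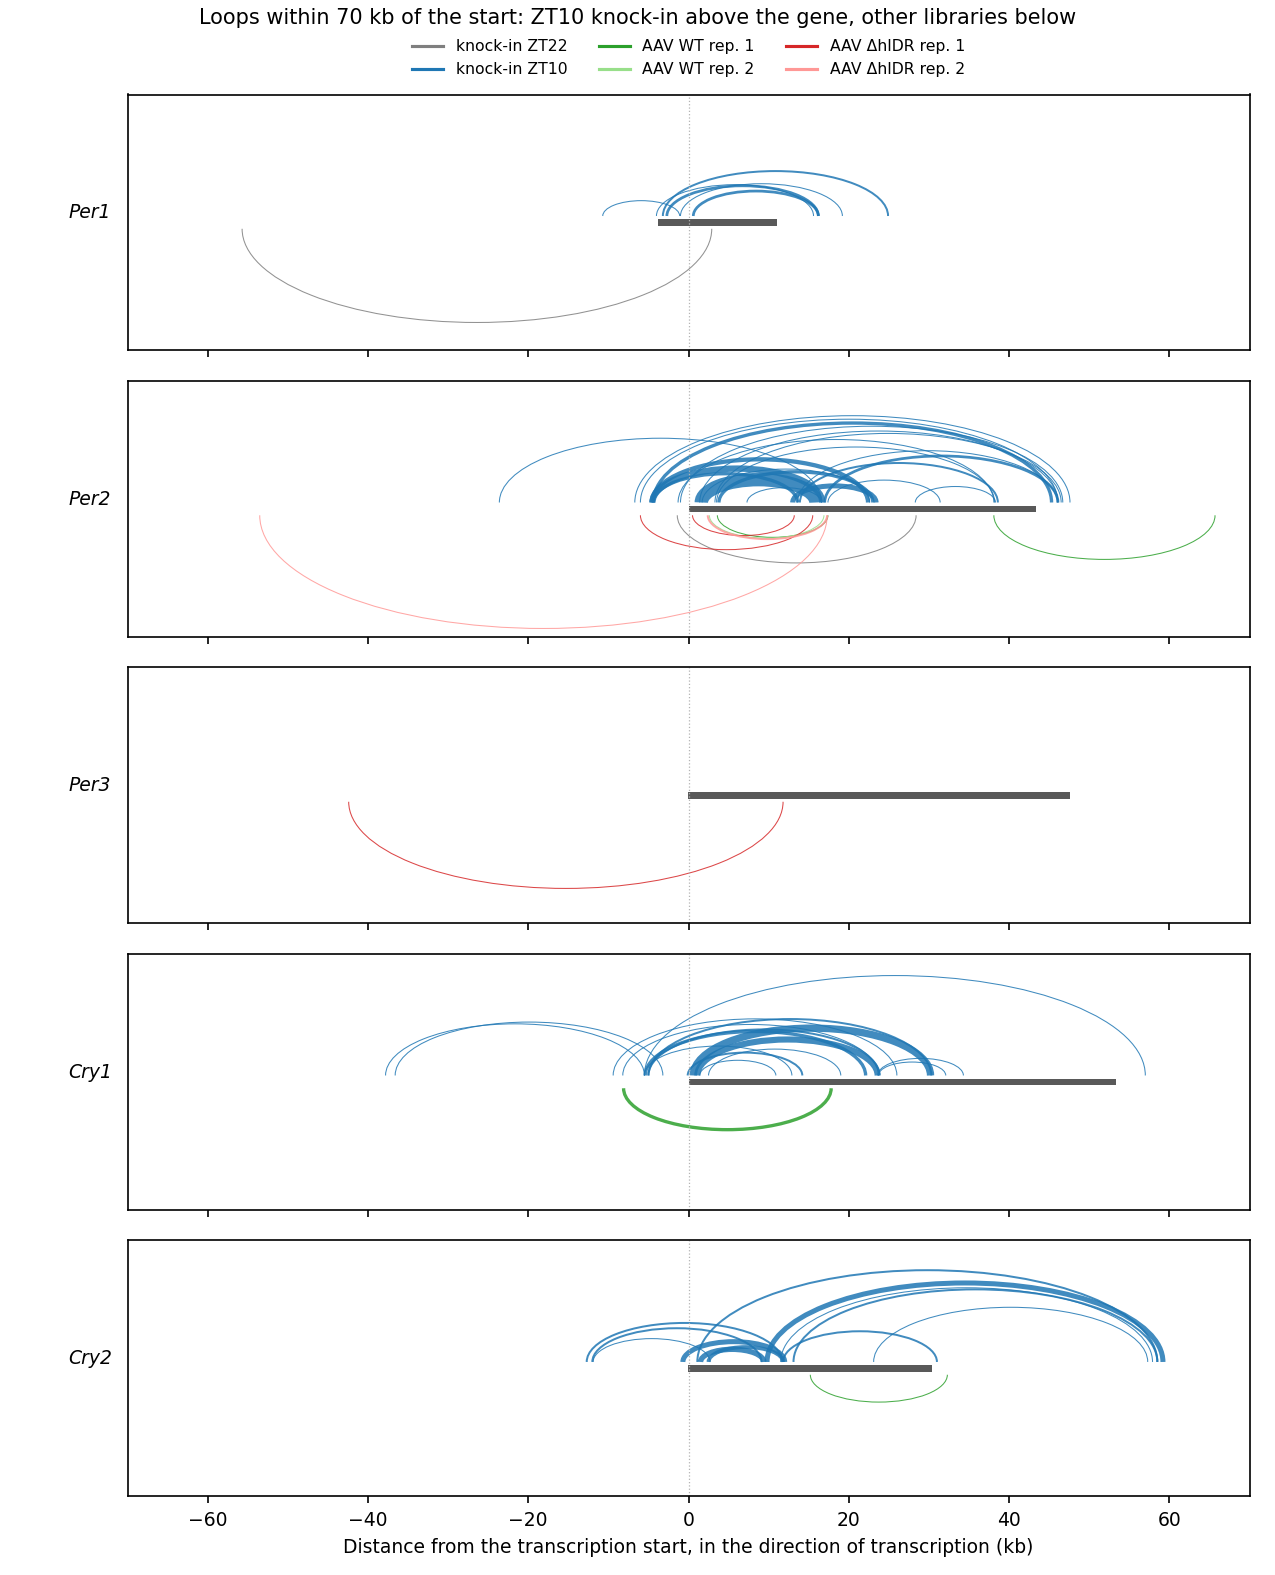
Loops with both anchor midpoints within 70 kb of the transcription start, plotted as distance in the direction of transcription in kb; arcs of the ZT10 knock-in library stand above each gene (grey bar), those of the other 5 libraries below it, and line width grows with log2 of PETs. At ZT10 the thickest Per2 arc lies in the 5′ part of the gene, and other Per2 arcs reach its 3′ end. The thickest Cry1 arcs join the start to the middle of the gene. Cry2 arcs meet at the start and inside the gene, whereas Per3 has none.

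At Per2 a single loop held 53.8% of the ZT10 PETs. It joined an anchor over the start (chr1:91453841-91461756) to one inside the gene (chr1:91439376-91447548) with 127 PETs, which ranked 33 among the 57865 loops of the library. Its anchors were 7916 and 8173 bp wide, and their midpoints lay 14.3 kb apart. Counted over all Per2 loops, the region inside the gene, 11.8 to 20.0 kb downstream of the start, took part in 10 loops with 179 PETs. The region over the start took part in 9 loops with 155 PETs.

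Smaller Per2 anchors formed a chain around that pair. A region upstream, from -7.2 to -3.5 kb, had 6 loops with 41 PETs, of which the strongest (15 PETs) reached the inner region. A region 21.7 to 24.6 kb downstream had 4 loops with 27 PETs. Beyond the gene's low-coordinate end, a region 44.3 to 48.1 kb from the start and near Hes6, a neighbour that encodes a basic helix-loop-helix cofactor, had 10 loops with 35 PETs, 8 of which ran back into the Per2 window or upstream of it. Of the 25 ZT10 loops at Per2, 15 had 3 PETs, the lowest count listed. Loops that also touched the window of another protein-coding gene held 16.5% of the PETs.

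The Per2 pair was the one ZT10 contact of the family that loops of the AAV libraries overlapped at both anchors. Each of the 4 listed 1 loop inside Per2, with 3 and 3 PETs in WT and 3 and 4 in ΔhIDR, and each overlapped the 127-PET loop at both anchors. The WT loops spanned 13.8 and 14.3 kb, and those of ΔhIDR 12.7 and 14.9 kb. The loop of WT replicate 2 (chr1:91442112-91442734 to chr1:91456409-91457058) and that of ΔhIDR replicate 2 (chr1:91441653-91442539 to chr1:91456676-91457219) also overlapped each other. No other 2 of the 4 AAV loops did so at both anchors, so they meet through the wide anchors of the ZT10 loop. ZT22 had 1 loop with both anchors in the Per2 window, with 3 PETs and a span of 29.8 kb. It overlapped the pair at the start anchor and missed the inner one.

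Counts of 3 and 4 PETs lie at or next to the lowest listed, so they do not rank the libraries. Over the whole ZT10 library 10 of 57865 loops (0.0173%) overlapped a loop of all 4 AAV libraries, and the Per2 loop was 1 of them. Wide anchors are met more easily: of 167 ZT10 loops with both anchors at least 5 kb wide, 4 (2.40%) did so, and of 67 with at least 100 PETs, 2 (2.99%). A loop with both anchors in the gene's own window was listed in all 6 libraries for 1.97% of all genes and for 2 of 3871 genes within 1.5 times the length of Per2, which was itself 1 of the 2. These background counts were chosen after the Per2 loops were seen and are descriptions.

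**Figure D3:**
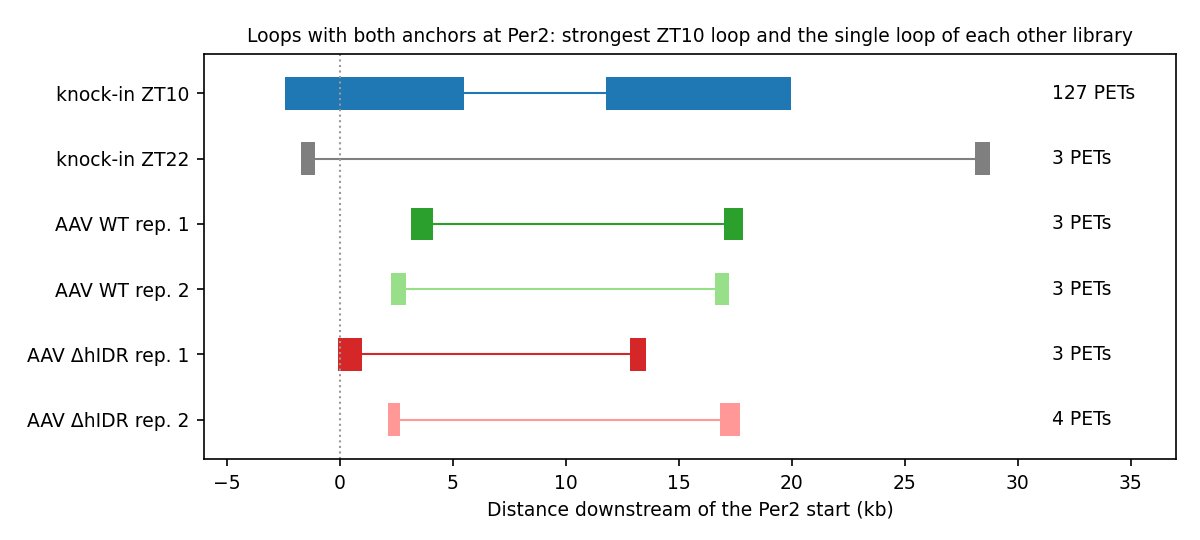
Loops with both anchors at Per2, as distance downstream of the start in kb; boxes are anchors to scale, lines join them, and PETs stand at the right. The ZT10 row shows the 127-PET loop only, the other rows the single such loop of each library; the 4 AAV loops (3 to 4 PETs) fall within its anchors, and the ZT22 loop reaches farther into the gene.

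The Cry1 loops with most PETs at ZT10 joined its start to the inside of the gene. The strongest 2 ran from the start (chr10:85182962-85185905 and chr10:85182045-85185905) to chr10:85153934-85155861, with 20 PETs and a span of 29.5 kb, and to chr10:85160374-85162493, with 14 PETs and 22.5 kb. Merged over loops, the region at the start had 5 loops with 44 PETs. Inside the gene, the region 21.5 to 24.7 kb downstream had 7 loops with 36 PETs, and that at 29.2 to 31.1 kb had 2 with 24 PETs. A further anchor, upstream at -6.3 to -4.5 kb, had 7 loops with 26 PETs.

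Longer Cry1 loops were weak at ZT10. There, 3 loops of 3 PETs each reached Rfx4, which encodes an RFX family transcription factor, at spans of 301.3, 350.2 and 378.3 kb. In ΔhIDR replicate 1 a loop of 4 PETs also ran to Rfx4, over 355.2 kb, with anchors that missed those at ZT10. That library's strongest Cry1 loop (9 PETs) reached Btbd11, 228.4 kb away, and ranked 173 among all its loops. WT replicate 1 listed a 6-PET loop of 25.9 kb from inside Cry1 to a place upstream of it. The upstream anchor of that loop overlapped one at ZT10, and its inner anchor did not. The shorter of the 2 Cry1 loops at ZT22 spanned 31677 kb, and ΔhIDR replicate 2 listed none.

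Cry2 loops at ZT10 centred on its start and on a pair of regions inside the gene. The region from -2.3 to 3.4 kb, which holds the start, had 5 loops with 35 PETs. Inside the gene, the region 11.0 to 13.9 kb downstream of the start had 6 loops with 32 PETs. That at 8.2 to 10.7 kb had 3 with 25 PETs. The first of these inner regions joined the start in a loop of 10 PETs (12.7 kb), the one Cry2 loop with an anchor over the start site. It also joined a place just inside the gene in a loop of 7 PETs (9.27 kb). The second joined the inside of the gene near the start in a loop of 11 PETs (7.98 kb). Cry2 also reached out of its window to chr2:92373777-92376497, at the neighbours Large2, a glycosyltransferase gene, and Pex16, a peroxisome assembly gene. That place had 4 loops with 21 PETs, the strongest of 10 PETs over 49.5 kb.

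Another 3 Cry2 loops with 11 PETs ended upstream, at -13.2 to -11.4 kb. Single loops joined Cry2 or its 5-kb flank to Phf21a, a gene of the LSD1 corepressor complex, in 3 libraries: 3 PETs over 217.2 kb at ZT10, 4 PETs over 248.6 kb in WT replicate 1 and 3 PETs over 210.7 kb in ΔhIDR replicate 2. None of these 3 overlapped another at both anchors. Loops that touched another gene's window held 44.3% of Cry2 PETs at ZT10.

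Per1 is the shortest member, and its neighbours Vamp2, a SNARE gene, and Hes7, a repressor gene of the segmentation clock, lie within reach of its window. Every one of its 8 loops at ZT10 touched the window of another gene, so none of its 29 PETs belongs to Per1 alone. A place past the gene's end near Hes7 (chr11:69113943-69115843) had 3 loops with 13 PETs, of which 5 PETs came from the start itself (chr11:69098455-69100657). Another loop of 4 PETs ran on to Aloxe3, a lipoxygenase gene. A further 2 ZT10 loops of 3 PETs each were long, at 34604 and 46671 kb. The 5 ΔhIDR loops had spans from 430.6 to 63773 kb, and none in replicate 1 overlapped one in replicate 2 at both anchors.

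Per3 differed from the rest of the family in having no short loop at ZT10. Its single ZT10 loop had 3 PETs and spanned 2947 kb. Of its 11 loops in all libraries 1 was under 100 kb (3 PETs, 54.2 kb, to Camta1 and Gm13090 in ΔhIDR replicate 1). The most PETs in 1 loop were 11, in ΔhIDR replicate 1, between Per3 and Cfap57 over 32407 kb.

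**Figure D4:**
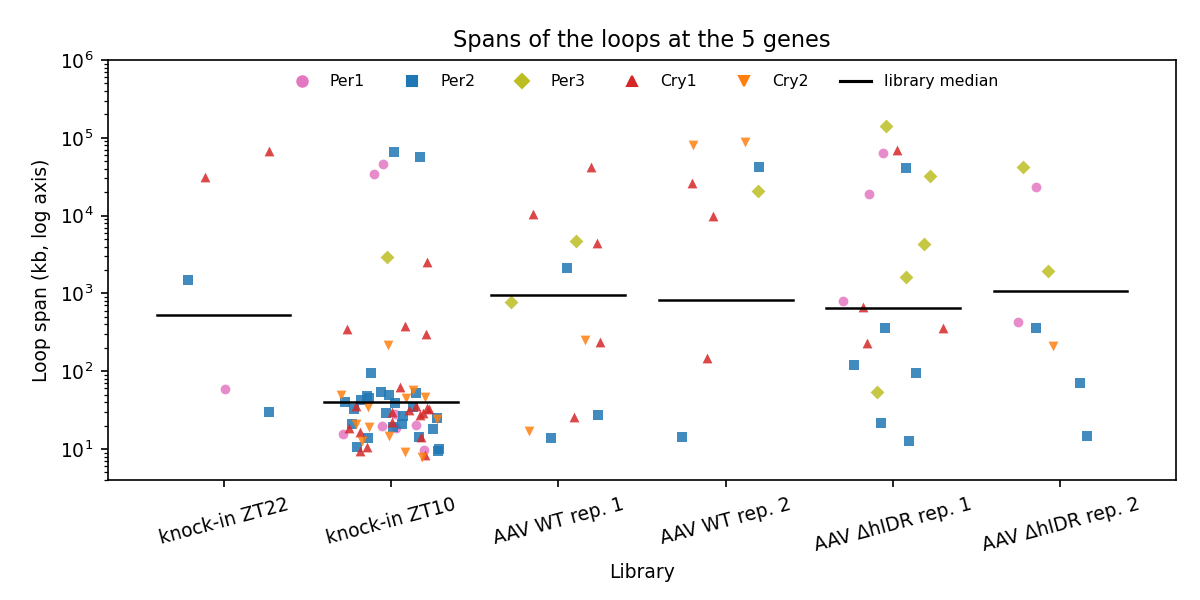
Span of every loop at the 5 genes in kb on a log axis, by library, with a black line at the median of all loops in that library. At ZT10 most points of Per1, Per2, Cry1 and Cry2 lie under 100 kb, whereas the other libraries scatter from 12.7 kb to 139742 kb.

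The time-of-day comparison asked how looping at these genes differs between ZT10 and ZT22. Because each time has 1 library, no test was possible, and a gene with at least 30 PETs over both libraries was called when its share of listed PETs differed at least 2-fold (pseudocount 0.5 PETs). Per2, Cry1, Cry2 and Per1 met the 30 PETs, and all 4 were called higher at ZT10. All 4 reached 30 PETs through the ZT10 library, where they are high, so the filter itself favours this direction and the calls are a description. Among 3721 such genes 56.0% were called higher at ZT10 and 23.0% higher at ZT22. With at least 10 PETs over both libraries the balance turned, with 2942 genes higher at ZT10 and 3574 higher at ZT22 of 8618, and the median log2 ratio was -0.26. Per3 had 3 PETs over both and could not be called.

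The share of listed PETs at Per2 was 12.2 times as large at ZT10 as at ZT22 (exact interval 6.10 to 28.6). It was 6.49 times as large at Cry1 (2.87 to 18.1), and at Per1 the interval of the ratio ran from 1.24 to 20.5. For Cry2, which ZT22 does not list, no fold is given, and the lower bound of its exact interval was 7.65. The intervals of Per2, Cry1 and Per1 overlap. As log2 ratios these were 3.53 at Per2, 2.59 at Cry1 and 1.80 at Per1, against a median of 1.40 over the 3721 genes.

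Against that median gene, Per2 stood at log2 2.13, Cry1 at 1.19 and Per1 at 0.40. On this scale Per2, Cry1 and Cry2 were at least 2-fold above the median, as were 32.2% of genes, while 35.7% were at least 2-fold below it and Per1 was neither. With loops of at least 5 PETs only, Per2 had 183 PETs against 5. Library totals were then recounted over such loops too, and on that changed scale its log2 ratio was 0.90, short of 2-fold. Per1 was short of 2-fold or of 30 PETs under 6 of 9 other settings. Counts of 8, 6 and 3 PETs at ZT22 sit close to the minimum of 3 per loop, and the intervals do not cover unlisted loops.

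**Figure D5:**
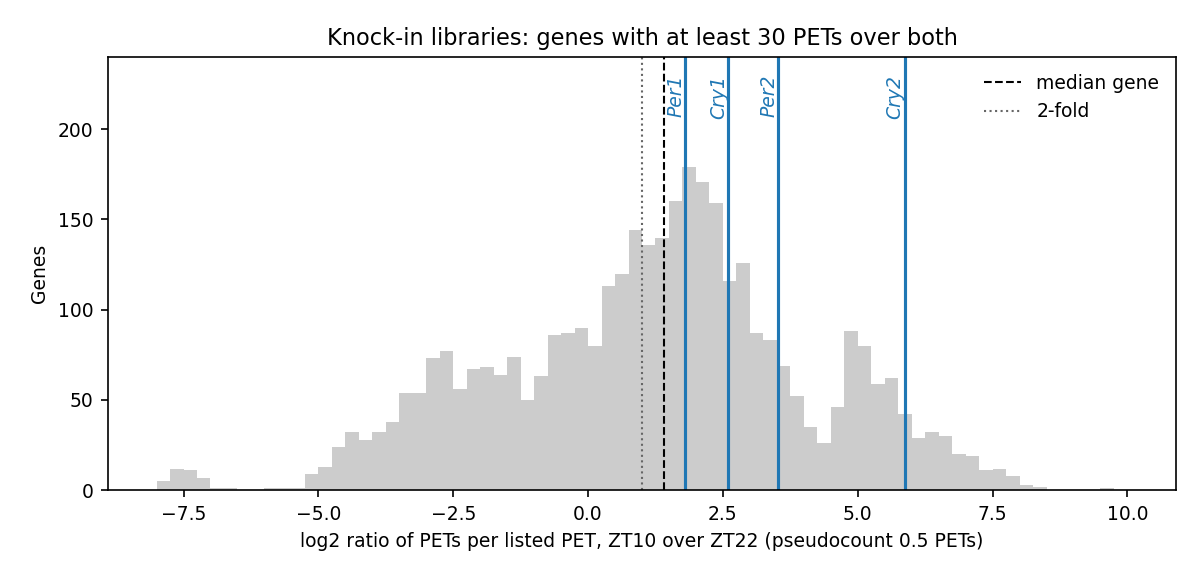
Number of genes (vertical axis) by log2 ratio of the share of listed PETs, ZT10 over ZT22, for the 3721 genes with at least 30 PETs over both. Blue lines mark Per1 (1.80), Cry1 (2.59), Per2 (3.53) and Cry2, whose place depends on the pseudocount because ZT22 lists none of its loops; the dashed line is the median gene at 1.40 and the dotted line 2-fold.

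A list of 15 further clock genes was counted the same way. In it 10 had 30 PETs over both libraries and all 10 were called higher at ZT10, with a median log2 ratio of 2.99 against 3.06 for the 4 members with as many PETs. The 4 with most PETs at ZT10 were Npas2, the CLOCK paralog (570 against 32 at ZT22), the ROR activator gene Rora (434 against 57), the D-box activator gene Hlf (325 against 15) and the D-box repressor gene Nfil3 (321 against 7). Of the 5 with fewer PETs, Rorb (7 against 13), Clock (3 against 11) and Nr1d2 (3 against 10) had fewer at ZT10 than at ZT22. Genes of PER and CRY regulators were counted as a second list. Of 16, 5 had 30 PETs, and their median log2 ratio was 0.48. Csnk2a2, a casein kinase 2 subunit (64 against 11), and Timeless (48 against 3) were higher at ZT10, and Fbxw11 (18 against 20) and Btrc (12 against 18), which encode the F-box proteins that mark PER for degradation, were higher at ZT22. Gsk3b, a kinase gene, had 45 against 13 PETs and was not called.

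A further question was how the tagged protein made from AAV compares with the knock-in at the same ZT10. Per 10000 listed PETs, Per2 had 7.37 in the knock-in against 0.864 and 0.294 in WT, and Cry2 had 2.18 against 0.672 and 0.294. Cry1 had 2.93 against 1.92 and 0.588. Of the 3 members with 30 PETs over these libraries, Per2 and Cry2 had at least 2 times the higher WT value, as did 40.2% of 5145 genes. Per2 and Cry2 reached 30 PETs through the knock-in library, so this count too is a description. Among Cry1 PETs, 82 of 94 in the knock-in and 6 of 20 and 0 of 12 in WT came from loops under 100 kb.

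The construct comparison asked whether looping at these genes differs with the hIDR removed. Of the family, Per1, Per2 and Cry1 had enough PETs to be tested, and none passed edgeR's quasi-likelihood test with Benjamini-Hochberg adjustment. Over all 4608 genes tested it called 0.0217%, a single gene, Sfi1, which is no member, with 124 genes at an unadjusted p under 0.05, and DESeq2 also called 1. Per2 was lower in WT by value, at 0.864 and 0.294 PETs per 10000 (mean 0.579 ± 0.403, SD, n = 2) against 1.06 and 0.685 in ΔhIDR (0.875 ± 0.269, n = 2). WT minus ΔhIDR came to -0.66 on the log2 scale (SE 0.88; edgeR gave an adjusted p of 1), and the groups overlap.

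Cry1 had 1.92 and 0.588 in WT (1.25 ± 0.942, SD, n = 2) against 1.18 and 0 in ΔhIDR (0.588 ± 0.832, n = 2), and WT minus ΔhIDR came to 1.01 on the log2 scale (SE 1.18; edgeR gave an adjusted p of 1). With loops under 2 Mb only, that difference was -0.01, and without ΔhIDR replicate 1 it was 7.22, a value fitted against a library at 0. Per1 was unlisted in both WT libraries and had 0.673 and 0.747 in ΔhIDR (0.710 ± 0.0527, SD, n = 2), with an adjusted p of 1 in edgeR. Its groups do not overlap, WT being lower, as for 14.5% of the 18946 genes that any of these 4 libraries lists. Per1's 5 loops here were all over 400 kb and shared no contact between replicates.

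Cry2 and Per3 had too few PETs to be tested in the main fit. Cry2 had 0.672 and 0.294 in WT and 0 and 0.187 in ΔhIDR, so that WT was higher without overlap, as for 12.0% of genes. Per3 had 0.576 and 0.147 in WT and 1.35 and 0.436 in ΔhIDR, which overlap. The fitted spread between replicates was wide (biological coefficient of variation 0.504), and the SEs above set what 2 libraries a group can resolve at these PETs. In a simulation with this spread and depth, edgeR recovered 0 of 191 genes changed 4-fold and 49 of 200 changed 8-fold. The lack of a call therefore does not show that a member was unchanged.

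Apart from the Per2 pair, loops at the family were not shared between libraries under the rule of 1 bp of overlap at each anchor. At ZT10, 1 of the 67 loops had a counterpart with overlapping anchors in any other library, which is 1.49% (Wilson interval at 95%, 0.264 to 7.98%) against 2.22% over the whole ZT10 library. Of the 51 loops in the other libraries, 4 matched one elsewhere, and these were the 4 inside Per2. With anchors widened by 5 kb on each side, 22 of the 67 matched, 10 at Per2, 10 at Cry1 and 2 at Cry2. No share over the whole ZT10 library is given at that width. Of the 25 Per2 loops, 7 then matched ZT22, 8 and 8 matched WT, and 7 and 8 matched ΔhIDR. The lack of a ZT22 match at Per2 thus depends on the overlap rule. Of the Cry1 loops, 9 matched WT replicate 1, which has 1 short Cry1 loop, and 1 matched ΔhIDR replicate 1.

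Across the 6 libraries, the genes whose PETs per 10000 lay nearest to each member (Euclidean distance of log2 values after adding 0.5, over genes with at least 30 PETs and no loop in common) were as follows. Nearest to Per2 were Pon3 (distance 0.497), Jade2 (0.527) and Papss2 (0.620). Pon3 had 274 PETs at ZT10 and 7 to 12 in the other libraries. Nearest to Cry1 were 3110082I17Rik (0.596), Slc17a8 (0.857) and B4galt5 (0.941), and to Cry2 they were Sgo2a (0.481), Sall1 (0.490) and Gpr146 (0.547). Mvk (0.316), Cdk8 (0.357) and Krt8 (0.392) lay nearest to Per1, each unlisted in both WT libraries like Per1 itself. Atp5a1 (0.472), Fam13b (0.477) and Thap4 (0.498) lay nearest to Per3.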

How the data were processed

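In-situ ChIA-PET was measured in mouse liver; 6 anti-HA libraries were used, and 2 further samples, pulled down for CTCF, were not used here. The authors' deposited files give, per library, pairs of anchors on 1 chromosome and raw counts of PETs joining them (lowest count 3), not normalized and not pooled. Coordinates are in mm10, as given per the submitters' processing notes; aligner, duplicate filter and cluster caller are not given in the sources used here. Mitochondrial clusters were left out. They held 13.3% of PETs in the ZT10 knock-in library, 5.21% at ZT22 and 0.0939% to 1.15% in the AAV libraries.

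Anchor starts were read as zero-based and are printed one-based. Genes came from RefSeq (GRCm38.p6; exons were not used). Starts came from RefSeq's promoter table; for Per2 the high-coordinate gene end was used. Groups came from sample titles. WT and ΔhIDR were compared with edgeR 4.0.16 (quasi-likelihood, TMM, filterByExpr, library size the total of listed PETs, Benjamini-Hochberg at 0.05) and DESeq2 1.42.0; scipy 1.17.1 gave exact intervals. A match between loops needed 1 bp of overlap at each anchor. Procedures were tested on simulated data. The members, lists and tests were chosen with earlier results of these data known. Named genes were all 5 members, partners at the 5 strongest loops per member or at loops in 2 or more libraries, the 3 nearest genes per member and up to 4 genes per list; partners of other loops, Sfi1, Btrc, Rorb, Clock and Nr1d2 were named after values were seen. Alternatives varied the window, scale, loop filter, pseudocount and replicates left out. The marker lists for endothelial, stellate, cholangiocyte and lymphoid cells had 3.62, 0.531, 0.999 and 1.25 PETs per 10000 at ZT10, and 2.34, 5.27, 2.41 and 1.58 at ZT22.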

Additional observations from a re-analysis of the deposited data

How the results depend on the processing

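With the median gene as the scale 1198 genes, not 2083, were at least 2-fold higher at ZT10, so that 47.4% of calls were higher at ZT10 against 70.9%. With at least 5 PETs per loop, 2 members were called in place of 4 (Cry1 and Cry2). The number of members called was 3 or 4 under the other 8 settings, and Per2, Cry1 and Cry2 were among them each time. edgeR called 1 gene between WT and ΔhIDR. It called 3 with no filter on low counts, 3 with a 25-kb flank, 0 within 5 kb of gene ends (22 at an unadjusted p under 0.05), 0 with loops under 2 Mb (70 under 0.05), and 2 to 6 with 1 library left out. No member tested in these fits was called, and near gene ends no member had enough PETs to be tested. With the 25-kb flank Cry2 and Per3 had enough PETs. WT minus ΔhIDR was then 2.81 on the log2 scale at Cry2 (SE 0.87, unadjusted p 0.0107 in edgeR). At Per3 it was -1.19 (SE 0.97). With the replicate number as a block edgeR still called 1 gene and no member; same-numbered libraries shared only a number (correlation of their deviations 0.0111 over genes). The log2 difference of Cry1 turned to -0.01 with loops under 2 Mb. Of the Cry1 loops, 3 of 5 and 2 of 3 in WT and 1 of 4 in ΔhIDR replicate 1 were longer than that. Why the long loops were placed so was not tested.

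Widening anchors by 5 kb raised the ZT10 loops matched elsewhere from 1 to 22. Loops of at least 5 PETs at the members numbered 1 at ZT22, 17 at ZT10, 2 and 1 in WT, and 4 and 2 in ΔhIDR. Loops of any PETs with a 25-kb flank numbered 14 at ZT22 and 19 and 17 in WT. Loops under 2 Mb numbered 3 at ZT22, 7 and 2 in WT, and 11 in ΔhIDR replicate 1. Genes higher at ZT22 numbered 855, but 3574 with at least 10 PETs, 13 near gene ends, 104 with at least 5 PETs per loop, 135 with wide anchors and 400 with loops under 2 Mb. Genes higher at ZT10 numbered 1482 to 2942 on the scale of listed PETs. Low counts limit every library: 30 of 46 AAV loops at the members and 39 of 67 at ZT10 had 3 PETs.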

Other observations

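Several of the strongest loops at the family in the AAV libraries left the gene's window. In ΔhIDR replicate 1 the loop of 11 PETs between Per3 and Cfap57 ranked 41 of 47939, and a Cry1 loop of 9 PETs to Btbd11 ranked 173. In ΔhIDR replicate 2 a Per1 loop of 7 PETs spanned 23565 kb to a place with no protein-coding gene within 5 kb. In WT replicate 1 the Cry1 loop of 6 PETs and 25.9 kb ranked 213 of 31033, and in WT replicate 2 a Cry1 loop of 6 PETs reached Specc1l over 9886 kb. None of these overlapped a loop of another library at both anchors, and of the 46 AAV loops at the 5 genes, 20 spanned over 2 Mb.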
